A study of Homo sapiens with 4 samples.

Results

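The metallothionein genes of chromosome 16 were followed across the 4 arrays of the microarray experiment. The members were MT1A, MT1B, MT1E, MT1F, MT1G, MT1H, MT1M, MT1X, MT2A and MT3, found as every probe for a gene whose name on the array equals one of these, which gave 10 of 43311 gene names and 13 of 58185 probes. MT1E had 3 probes, MT1B had 2 and each other member had 1. Metallothioneins are small proteins rich in cysteine that bind zinc, copper and cadmium, and their genes stand side by side in a cluster of closely related copies. Transcription of most of them is raised by metals through MTF1, a zinc-sensing factor that binds short metal response elements in the promoters, and several also respond to glucocorticoids. MT2A and the MT1 genes are used in many tissues, whereas MT3 is known best from the brain.

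MDS-L is a human cell line derived from a myelodysplastic syndrome, and MDS-L/CDA is its derivative made resistant to 5-azacytidine (AZA), a DNA-hypomethylating drug, by transduction of CDA, whose product deaminates cytidine analogues. Each line was grown in the same IL-3-containing medium and was kept for 72 h with AZA at 1 μM or with 0.1% DMSO as vehicle. Total RNA of each combination was hybridized to 1 array, so no test was possible and no replicate error can be given. The promoter that drives CDA and whether MDS-L/CDA is a clone are not given in the sources used here. The labels conflict in places. The titles write the AZA dose in mM, whereas the description, the source name and the study give μM. Another field gives the opposite treatment for the AZA array of MDS-L and the vehicle array of MDS-L/CDA. Title, description and source name all assign AZA and vehicle to the arrays as used here. The main result below rests on the array labelled MDS-L AZA. The only CDA probe was well above background on 0 of the 4 arrays, the MDS-L/CDA arrays included. The arrays thus do not show the CDA transduction of that line. Whether the probe lies in the transduced sequence is not given in the sources used here, and why it gave no signal was not tested. Of the 10 myeloid progenitor markers examined, 9 (CD34, KIT and CD33 among them) were well above background on all 4 arrays, and MPO on none. Of the 5 fibroblast and 4 epithelial markers, 0 were.

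All values below are relative signals, that is, the background-subtracted brightness of a spot divided by the 75th percentile of its array. The scanner software marks each spot as well above background or not, and the lowest relative signal so marked was 0.190 on both MDS-L arrays, 0.272 on the MDS-L/CDA vehicle array and 0.296 on the MDS-L/CDA AZA array. Each member probe had 1 spot. The spread between the spots of probes printed 10 times gave an SD of 0.33 for the log2 ratio of a pair of spots, or 1.26-fold, and 2 such SDs make 1.58-fold. It is pooled over arrays whose single spots differed in spread. Their log2 SD was 0.18 with vehicle and 0.21 with AZA in MDS-L, and 0.24 and 0.29 in MDS-L/CDA. Spot error covers neither the hybridization nor the culture. Signals are compared only between arrays and never between probes.

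Probe sequences were compared with those of other probes on the array, and not with the transcripts of all metallothionein genes. Which transcripts each probe could bind was thus not settled. MT1F, MT1H and MT1X were each measured by a probe at a stretch that aligns without gaps between the genes. The first 30 bases of the probes are given because MT1X behaved differently from MT1F and MT1H. Capitals mark bases that differ from the MT1X probe.
MT1F: tgccaggacaAcCTtTctcCcagatgtaaa
MT1H: tgTcGggacagcCCtgctGtcagatgAaaa
MT1X: tgccaggacagctgtgctctcagatgtaaa
Over all 60 bases, the MT1F and MT1X probes were identical at 49 positions, the MT1F and MT1H probes at 46, and the MT1H and MT1X probes at 44.

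The MT1E probes are named the first, the second and the third by their place along the chromosome. The last 30 bases of the second probe overlap the first 30 bases of the third, and 29 of the 30 are identical. The exception is A29T, counted from the 5′ end of the overlap with the base of the second probe first, which is in capitals.
MT1E, the second probe: atgtgggaacagctcttctcccagatgtAa
MT1E, the third probe: atgtgggaacagctcttctcccagatgtTa
The accessions that the array lists for the third probe belong to MT1E, MT1M and the pseudogene MT1JP by RefSeq, and those of the second to MT1E alone. The second probe also matched the MT1L probe at 38 of 42 aligned bases and the second MT1B probe at 49 of 59. The third matched the MT1L probe at 41 of 48 aligned bases. Of 59 aligned bases it matched 42 with the MT1X probe, 40 with MT1F and 39 with MT1H.

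The remaining probes that were called are shown by their first 30 bases, with no base marked.
MT1G: cccgtaaaatctaggattttttgttttttg
MT1M: ttttttcaatacgatactgagccatttgct
Neither shared a run of 20 bases with any other probe on the array, and binding to other metallothionein transcripts was not examined. The MT1A probe and the first MT1B probe read through as coding sequence without a stop codon. Both are shown beside the probe of MT1HL1, a related gene on chromosome 1, with cysteine codons in capitals.
MT1A: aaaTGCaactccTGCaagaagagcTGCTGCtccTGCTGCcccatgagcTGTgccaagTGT
MT1B first probe: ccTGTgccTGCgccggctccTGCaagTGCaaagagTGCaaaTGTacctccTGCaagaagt
MT1HL1: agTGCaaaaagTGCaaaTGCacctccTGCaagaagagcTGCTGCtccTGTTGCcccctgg
These probes hold 8, 7 and 8 cysteine codons. The MT1A probe shared an identical run of 27 bases with the MT1HL1 probe and 42 of 46 aligned bases, and its listed accessions belong to MT1A and MT1M. The first MT1B probe matched the MT1HL1 probe at 33 of 36 aligned bases. Signal of these probes may therefore come from more than 1 gene, and which one it came from was not tested.

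With AZA, 5 probes of 5 metallothionein genes, MT1G, MT1E, MT1H, MT1F and MT1M, were well above background on the MDS-L AZA array and on none of the other 3 arrays. Of the 2 further MT1E probes, the second was well above background on all 4 arrays and the first on none. The probes of the remaining members were measured on every array and differed less than 2-fold between arrays. In cells measured in bulk, more cells that use a gene and more RNA per cell cannot be told apart.

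**Figure D1:**
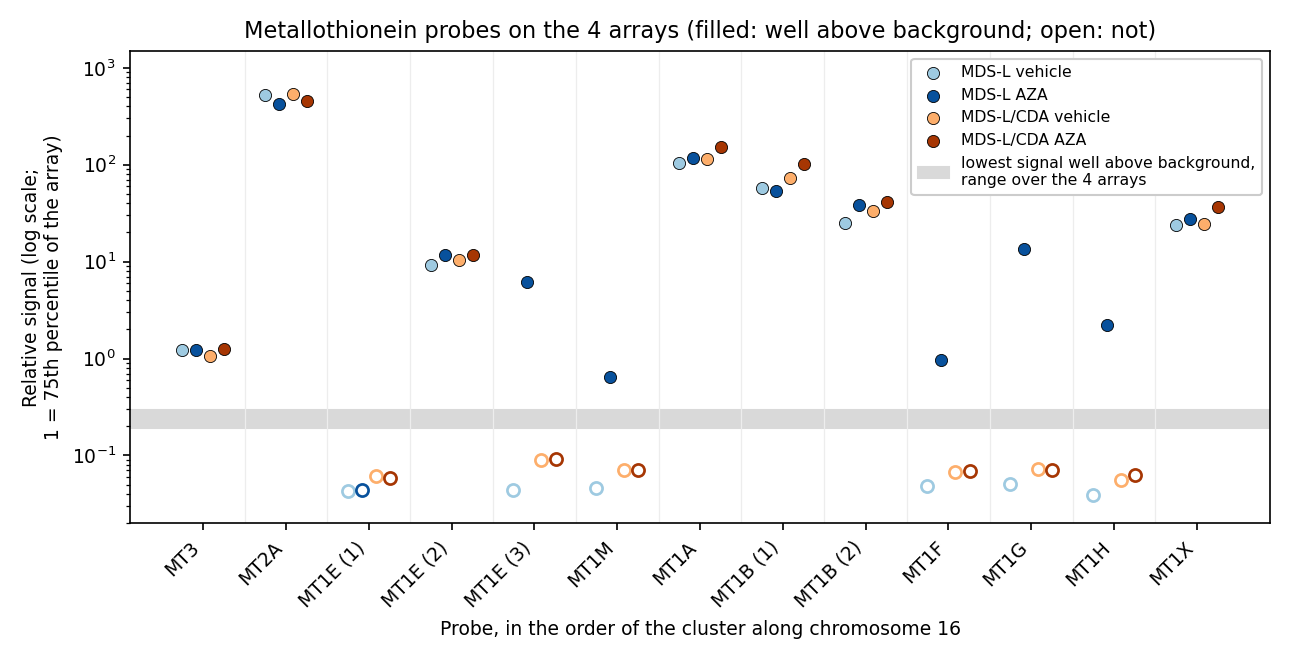
Relative signal of the 13 metallothionein probes on the 4 arrays (log scale, 1 is the 75th percentile of the array), in the order of the cluster along chromosome 16, with filled points well above background and open points not. The grey band spans the lowest signals marked well above background. The third MT1E probe, labelled MT1E (3), and the probes of MT1M, MT1F, MT1G and MT1H have a filled point for MDS-L AZA alone. Another 7 probes have filled points close together on all 4 arrays.

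MT1G (chr16:56700694-56700752 of hg19) had relative signals of 0.0503 with vehicle and 13.6 with AZA in MDS-L cells, and of 0.0729 with vehicle and 0.0715 with AZA in MDS-L/CDA cells. The MDS-L AZA array was high and the other 3 lay below background without a measurable order. Because the vehicle signal was below background, only a lower bound of the increase is known, taken against the dimmest signal that the vehicle array marked as well above background. By this bound MT1G was at least 71.7-fold higher with AZA in MDS-L cells, whereas the ratio of the signals as computed was 271. Since the bound is set by the floor of the vehicle array and the brightness of the probe, bounds of different probes have no order.

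The third MT1E probe (chr16:56660883-56660942) had 0.0441 with vehicle and 6.14 with AZA in MDS-L cells, and 0.0888 and 0.0924 in MDS-L/CDA cells. It was at least 32.3-fold higher with AZA in MDS-L cells. The second MT1E probe (chr16:56660853-56660912), which differs from it at 1 base of their overlap, did not share this pattern. Its signals were 9.24, 11.7, 10.3 and 11.6 in the same order of arrays, all well above background, with AZA/vehicle ratios of 1.27 in MDS-L cells against 1.13 in MDS-L/CDA cells. The first probe (chr16:56660614-56660673) was below background on all 4 arrays, with signals between 0.0432 and 0.061. The 3 probes of this gene thus disagreed, and the call of MT1E rested on the third, whose listed accessions include MT1M and MT1JP.

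MT1H (chr16:56704902-56704961) had 0.0393 with vehicle and 2.24 with AZA in MDS-L cells, and 0.0564 and 0.0628 in MDS-L/CDA cells. It was at least 11.8-fold higher with AZA in MDS-L cells. MT1F (chr16:56693077-56693136) had 0.0486, 0.978, 0.0675 and 0.0698 in the same order, and was at least 5.15-fold higher. For both of these probes the MDS-L AZA array again stood alone. MT1M (chr16:56667810-56667869) had 0.0465, 0.642, 0.0708 and 0.0706, and was at least 3.38-fold higher. Here too the other 3 arrays were below background. The MT1HL1 probe also lists accessions of MT1H, and the MT1A probe also lists those of MT1M. Both were well above background on all 4 arrays, and which gene gave their signal was not tested. The calls of MT1H and MT1M thus describe the probes named for them.

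A gene was called higher or lower when a probe well above background on the brighter array differed at least 2-fold with a Z score of 2 or more in that direction, the Z score being the log2 ratio over the SD among probes of similar brightness in the same pair. In MDS-L cells 5 of the 10 members were called higher with AZA, where 1.84% of all 43311 genes were, and 0 were called lower, where 1.28% were. In MDS-L/CDA cells 0 members were called higher and 0 lower, with 0.884% and 1.35% of all genes called. Among all genes, 1.53% were called higher in MDS-L cells and not in MDS-L/CDA cells, and 5 of the 10 members were. This difference between the lines was not tested. In MDS-L/CDA cells the 5 probes were below background with and without AZA, so no ratio was measured there. By the ratio alone the same 5 members were called in MDS-L cells, where 4.53% of all genes were higher and 3.59% lower, and again 0 in MDS-L/CDA cells, where 1.74% and 2.09% were.

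Counted by probe, 6 of the 13 member probes were below background in MDS-L vehicle, and 5 of these 6 were well above it with AZA. Of all probes below background in MDS-L vehicle, 4.8% were. In MDS-L/CDA cells 6 member probes were below background with vehicle, and 0 crossed with AZA, where 2.33% of all such probes did. Being well above background on the MDS-L AZA array alone was found for 38.5% of the member probes and 2.4% of all probes. The T cell markers also moved with this array. Of CD3D, CD3E, CD3G and CD2, the markers well above background numbered 0 with vehicle and 2 with AZA in MDS-L cells, and 0 with vehicle and 1 with AZA in MDS-L/CDA cells. CD3D had relative signals of 0.177, 4.47, 0.0865 and 0.153 in the same order, well above background on the MDS-L AZA array alone. CD2 had 0.217, 1.29, 0.261 and 0.451, well above background on both AZA arrays. CD3E and CD3G were below background on all 4 arrays. The part of such markers in the metallothionein result was not tested.

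The comparison of the lines with AZA shares the MDS-L AZA array with the comparison above, and gave the same 5 genes. With vehicle, 0 members were called higher or lower in MDS-L/CDA than in MDS-L cells, where 0.586% and 1.33% of all genes were. With AZA, 5 of 10 members were called lower in MDS-L/CDA cells, where 1.67% of all genes were, and 0 were called higher, where 1.01% were. By the ratio alone the members called were the same, where 1.19% of all genes were higher and 2.22% lower with vehicle, and 2.79% higher and 4.4% lower with AZA. The signals were at least 46.0-fold lower for MT1G, 20.8-fold lower for the third MT1E probe, 7.58-fold lower for MT1H, 3.31-fold lower for MT1F and 2.17-fold lower for MT1M. These bounds are smaller than those within MDS-L cells because the lowest signal well above background was higher on the MDS-L/CDA AZA array. The vehicle arrays of the lines did not separate on these probes, all of which were below background there.

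The 7 other probes were well above background on all 4 arrays. MT2A, which encodes a metallothionein made in most human tissues, was measured at chr16:56643332-56643391 by a probe that starts as follows.
MT2A: caaccctgaccgtgaccgtttgctatattc
Its relative signals were 520 with vehicle and 425 with AZA in MDS-L cells, and 532 with vehicle and 451 with AZA in MDS-L/CDA cells. In each line the AZA array was lower than the vehicle array, with AZA/vehicle ratios of 0.818 in MDS-L cells against 0.848 in MDS-L/CDA cells. Both ratios stayed below 1 under all 7 other normalizations. Yet both are within 1 SD of the difference between spots as pooled over the arrays, of which those of MDS-L had the smaller spread. The lines differed by less, with MDS-L/CDA over MDS-L ratios of 1.02 with vehicle and 1.06 with AZA.

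MT1X (chr16:56717962-56718021) had relative signals of 23.6 with vehicle and 27.7 with AZA in MDS-L cells, and of 24.3 and 36.6 in MDS-L/CDA cells. The AZA/vehicle ratio was 1.17 in MDS-L cells against 1.5 in MDS-L/CDA cells, the latter above 1 SD and below 2 SDs of the difference between spots. MT1X was thus measured on the 3 arrays on which the MT1F and MT1H probes, at the aligned stretch, were below background.

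MT1A (chr16:56673205-56673808) had 105, 117, 115 and 151 in the same order of arrays. Its AZA/vehicle ratio was 1.11 in MDS-L cells against 1.32 in MDS-L/CDA cells. The first MT1B probe (chr16:56686489-56686548) had 58.0, 54.1, 72.8 and 101, with ratios of 0.933 and 1.39. For both of these probes the MDS-L/CDA AZA array was the brightest, as it also was for MT1X, the second MT1B probe and MT3. Without scaling, the MT1A, MT1X and second MT1B probes were brightest on the MDS-L AZA array, and MT3 on the MDS-L vehicle array. With AZA, the first MT1B probe was 1.87-fold higher in MDS-L/CDA than in MDS-L cells, beyond 2 SDs of the difference between spots and short of both thresholds. The second MT1B probe (chr16:56686948-56687007) had 25, 38.2, 33.2 and 41.2, with ratios of 1.53 and 1.24. In MDS-L cells the ratio of the first probe was within 1 SD of 1 and lay above 1 under 4 of the 7 other normalizations, as that of the second did under all 7.

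MT3 (chr16:56624933-56624991), which encodes the form known from the brain, had 1.23 with vehicle and 1.22 with AZA in MDS-L cells, and 1.08 and 1.25 in MDS-L/CDA cells. All 4 values lay within 1 SD of each other, with AZA/vehicle ratios of 0.989 and 1.16.

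**Figure D2:**
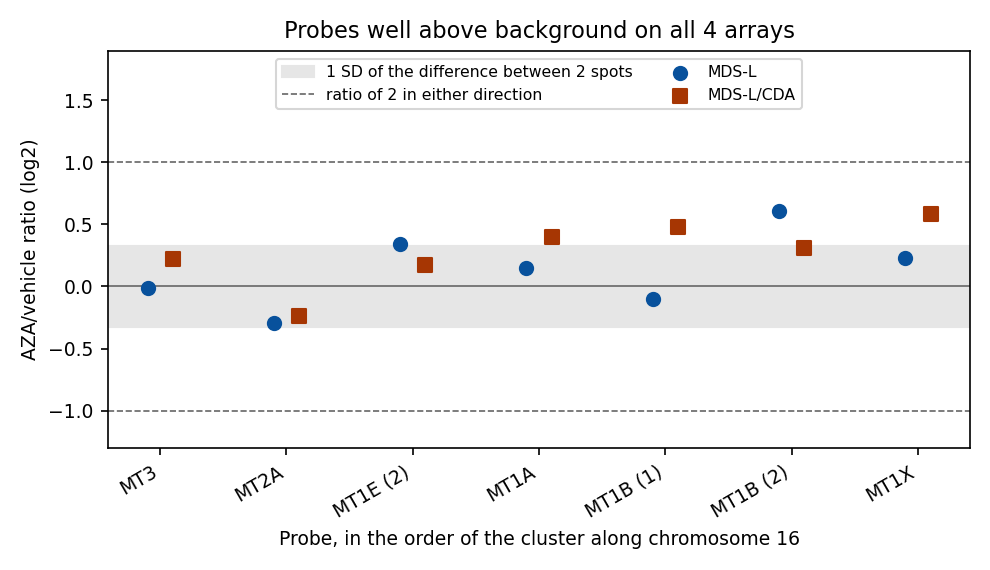
AZA/vehicle ratios (log2, vertical axis) of the 7 metallothionein probes well above background on all 4 arrays, in MDS-L (circles) and MDS-L/CDA cells (squares). The grey band is 1 SD of the difference between a pair of spots and the dashed lines are ratios of 2 in either direction, which none of the 14 points reaches.

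Over these 7 probes the median AZA/vehicle ratio was 1.11 in MDS-L cells, with 4 above 1, and 1.24 in MDS-L/CDA cells, with 6 above 1. The medians of all 17809 probes well above background on all 4 arrays were 0.888 and 1.01. Between lines, the median MDS-L/CDA over MDS-L ratio of the members was 1.09 with vehicle and 1.08 with AZA, beside 1.06 and 1.18 over all such probes. The direction of these small ratios depends in part on the scaling. In MDS-L cells the second MT1B probe and MT2A kept their direction under all 7 other normalizations, while MT1A, MT1X, the second MT1E probe, the first MT1B probe and MT3 turned under at least 1. Scaling to the array median, which shifted the median log2 ratio of all probes by -0.54 in MDS-L cells, gave 0.761 for MT1A and 0.805 for MT1X. In MDS-L/CDA cells all 7 probes kept their direction under the same 7 normalizations. The log2 ratio in MDS-L cells minus that in MDS-L/CDA cells ran from -0.58 for the first MT1B probe to 0.30 for the second, inside the middle 95% of all probes, which ran from -1.37 to 1.21.

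The mean of the log2 signals of these 7 probes, each centred on its own mean over the 4 arrays, was -0.17 with vehicle and -0.034 with AZA in MDS-L cells, and -0.038 and 0.24 in MDS-L/CDA cells. Among 17561 other probes, those with centred signals nearest to this mean belonged to lnc-AIPL1-2, ZNF335, KMT2A, lnc-KBTBD6-1 and DOLK, at root mean square distances between 0.011 and 0.016 on the log2 scale over the 4 arrays. The 7 member probes themselves lay between 0.049 and 0.25 from it, so that the mean describes some of them poorly. The SD of 0.33 holds for the log2 ratio of a pair of single spots, and the spot error of a mean over 7 probes was not computed. Whether the near matches reflect more than spot error was not tested.

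Of the other metallothionein names on the array, MT1DP, MT1IP and MT4 were not well above background on any array. MT1HL1, whose coding-sequence probe lists accessions of MT1HL1 and MT1H, had 86.7, 124, 143 and 210 in the order used above. Its AZA/vehicle ratios were 1.42 and 1.48, and MDS-L/CDA cells were 1.64-fold higher than MDS-L cells with vehicle and 1.70-fold higher with AZA, with no call. The MDS-L/CDA AZA array was the brightest with the scaling used here. This was so for MT1A and the first MT1B probe, which resemble it, and also for MT1X, the second MT1B probe and MT3. MT1L, a pseudogene of the cluster, had 17.3, 10.1, 7.49 and 13.9. It was called lower in MDS-L/CDA than in MDS-L cells with vehicle, at a ratio of 0.434, and its AZA/vehicle ratios of 0.585 and 1.85 were not called.

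Promoters were examined for members with an entry in the RefSeq table, which were MT1B, MT1H, MT1X and MT2A. The core of the metal response element was searched as TGCACNC and TGCGCNC on both strands over the 250 bases before the start of each gene (GRCh38.p14, plus strand), and no hits overlapped. The promoter of MT1H, whose signal appeared with AZA, is given with those of MT2A and MT1X, which were measured on every array. Capitals mark the cores.
MT1H, chr16:56669564-56669813: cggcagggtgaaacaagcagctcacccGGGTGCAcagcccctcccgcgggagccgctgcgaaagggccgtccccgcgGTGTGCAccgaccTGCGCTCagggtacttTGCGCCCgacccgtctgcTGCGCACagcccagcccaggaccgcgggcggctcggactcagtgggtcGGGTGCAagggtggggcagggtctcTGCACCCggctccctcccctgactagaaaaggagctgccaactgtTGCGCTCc
MT2A, chr16:56608334-56608583: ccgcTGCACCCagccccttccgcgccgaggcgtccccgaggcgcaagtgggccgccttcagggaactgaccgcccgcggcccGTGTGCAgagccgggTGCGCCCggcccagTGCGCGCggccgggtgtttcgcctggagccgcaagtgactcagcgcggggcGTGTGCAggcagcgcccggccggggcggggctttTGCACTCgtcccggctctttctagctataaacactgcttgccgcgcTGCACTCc
MT1X, chr16:56682220-56682469: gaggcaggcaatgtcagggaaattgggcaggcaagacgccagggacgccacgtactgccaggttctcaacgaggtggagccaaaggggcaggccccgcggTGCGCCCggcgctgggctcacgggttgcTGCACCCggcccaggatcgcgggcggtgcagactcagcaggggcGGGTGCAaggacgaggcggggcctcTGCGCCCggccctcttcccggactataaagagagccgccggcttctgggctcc
The window held 8 cores in MT1H, 7 in MT2A, 4 in MT1X and 3 in MT1B. Of all 35116 promoters of the table, 24.8% held at least 1 core, 0.37% at least 4 and 0.0313% at least 7. MT1H had 22 CpG dinucleotides, as did MT1X, while MT2A had 32 and MT1B had 7, beside a median of 11 over all promoters. These matches describe letters of the window, and methylation of the windows was not analysed here.

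Few genes of the related lists were called with AZA, and with 1.84% of all genes called higher and 1.28% lower in MDS-L cells, and 0.884% and 1.35% in MDS-L/CDA cells, counts of 0 or 1 are near the background for lists of this size. Of the 25 genes of zinc sensing and transport, 16 had a probe well above background on at least 1 array, 0 were called higher with AZA in either line, and 1 was called lower, SLC39A8 in MDS-L cells. SLC39A8, which carries zinc into cells, had 41.1, 19.8, 35.0 and 41.5 in the order used above, with AZA/vehicle ratios of 0.483 in MDS-L and 1.19 in MDS-L/CDA cells. Its other probe gave 0.772 and 0.473 and was not called. MTF1 had 4.05, 2.44, 2.10 and 3.15, with ratios of 0.602 and 1.5. SLC30A1, a zinc exporter whose gene is also a target of MTF1, had 6.55, 5.93, 7.87 and 10.5, with ratios of 0.906 and 1.34. Neither was called with AZA in either line.

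Of the 10 copper handling genes, all had a probe well above background on at least 1 array, and 0 were called with AZA in either line. Of the 9 glucocorticoid-responsive genes, 8 had such a probe and 1 was called, SGK1, a kinase gene induced by glucocorticoids, in MDS-L/CDA cells. Its signals were 0.838, 2.27, 0.902 and 3.56, with AZA/vehicle ratios of 2.71 in MDS-L cells, where it was not called, and 3.95 in MDS-L/CDA cells. Of the 18 neighbours of the cluster on chromosome 16, 11 had a probe well above background on at least 1 array, and 0 were called with AZA in either line. NUP93, a nuclear pore gene, had ratios of 0.843 and 0.970, and BBS2 had 1.27 and 0.975. The measured neighbour probes ranged more widely than these. In MDS-L cells the lowest ratio was 0.403 for ARL2BP, with 0.958 in MDS-L/CDA cells. The highest was 1.71 for CPNE2, with 1.22 in MDS-L/CDA cells. The median log2 ratio in MDS-L cells was -0.14 for zinc, -0.071 for copper, 0.11 for glucocorticoid-responsive and -0.19 for neighbouring genes. In MDS-L/CDA cells it was -0.063, 0.069, 0.26 and -0.040. These medians cover probes well above background on at least 1 array of the pair. Over all probes so chosen the median was -0.124 in MDS-L cells and 0.013 in the MDS-L/CDA line.

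**Figure D3:**
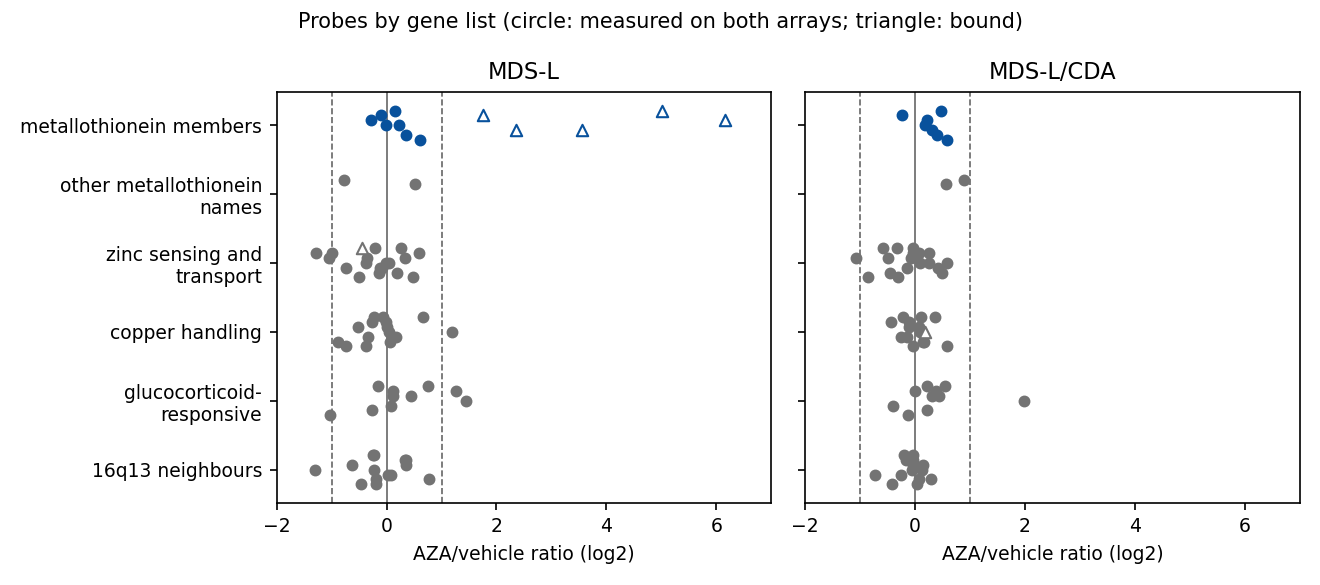
AZA/vehicle ratios (log2, horizontal axis) of the probes of each gene list (vertical axis) in both lines, with circles for probes measured on both arrays of the pair and triangles for bounds. Dashed lines mark ratios of 2. In MDS-L cells the 5 metallothionein triangles lie to the right of the right-hand dashed line. The metallothioneins have circles only in MDS-L/CDA cells, all between the dashed lines.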

How the data were processed

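RNA of 4 cultures was hybridized to 4 one-colour Agilent arrays on 1 slide. The authors deposited scanner output made with Agilent Feature Extraction 10.7.1.1, in which spot intensity is background-subtracted within the array and not normalized between arrays, with flags for outliers and for signal well above background. Their value table holds intensity for 51680 probes, its normalization is not given in the sources used here, and it correlates with the scanner values of each array at 0.999 or higher across probes. No column of a sample went unused.

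Control spots and 16 of 58201 gene probes with outlier flags were left out. The signals of a probe's spots were averaged as log2, and the 75th percentile of the array was set to 0. The ratio and Z score thresholds of 2 follow the study's methods. The 10 bins of mean log2 signal behind the Z score, the mirrored rule for decreases and the use between lines were chosen here. For bounds, a signal below background was raised to the dimmest signal of its array marked as well above it, unless its own value was higher. Pairs below background on both arrays have no fold. Of the 4 groups each had 1 array, which limits the precision, and there is no test. The members and lists were chosen with earlier results of these data known. All members were named with every probe, together with other metallothionein names, MTF1, SLC30A1, genes of the lists called with AZA and the 5 most similar genes. A marker list is not reported here. NUP93, BBS2, ARL2BP and CPNE2 were named after their values were seen. Gene names are those of the array, positions those of hg19 in the files, and promoters come from RefSeq, GRCh38.p14. No annotation of hg19 was used, so exon or UTR is not assigned beyond the reading frame of the probes.

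Alternatives were 4 other scalings, quantile normalization, normexp with an offset of 50, the authors' value table, 2 filters for dim probes, 2 other thresholds and 2 other rules for several probes. Python 3.11.15, numpy 2.4.6, pandas 2.3.3, matplotlib 3.10.9, R 4.3.3 and limma 3.58.1 were used.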

Additional observations from a re-analysis of the deposited data

How the results depend on the processing

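The counts of called metallothionein genes changed with the treatment of dim probes. With normexp, whose offset lowers ratios of dim probes, 3 genes (MT1E, MT1G and MT1H) were called higher with AZA in MDS-L cells and the same 3 lower in MDS-L/CDA than in MDS-L cells with AZA. When probes had to be well above background on both arrays of a pair, 0 were called in either comparison, since all 5 probes were below background on the other array. Taking the brightest probe of each gene lost MT1E and left 4 in each. The remaining alternatives left the same 5 genes in both, and under every alternative 0 members were called in the other 2 comparisons. The bound for MT1G in MDS-L cells ran from 10.5-fold with normexp to 81.4-fold, and was at least 49.2-fold under the other 6 normalizations. It ran from 4.71 to 36.7 for the third MT1E probe, 2.84 to 13.4 for MT1H, 1.59 to 5.85 for MT1F and 1.33 to 3.84 for MT1M. Of 266 probe ratios recomputed under 7 normalizations, 207 moved by less than the spread between spots and 59 by more. Signal under the lowest level well above background gives only a bound. No paired analysis was possible because each group has 1 array, and for the same reason no replicate could be left out.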
